A study of Mus musculus with 24 samples.

Results

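Frzb, Wif1 and the Sfrp genes encode secreted proteins that bind Wnt ligands outside the cell, and they were followed here in the adrenal gland of mice that lack the potassium channel gene Kcnk3. The members were taken by gene name from the array design, as every probe that is no control and is named Frzb, Wif1, Sfrp1, Sfrp2, Sfrp4 or Sfrp5. This gave 6 genes of 36413 gene names on the array, each with 1 probe of 60 bases. All 6 passed the filter on dim probes, none was saturated, and none was marked as an outlier on any array.

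RNA of adrenal glands from C57BL/6 mice was hybridised to 24 one-colour Agilent arrays, 3 for each of 8 groups. The groups labelled female were Kcnk3 null given testosterone, Kcnk3 null after sham treatment, wild type (WT) given testosterone and WT after sham treatment. Those labelled male were Kcnk3 null castrated, Kcnk3 null sham, WT castrated and WT sham. Kcnk3 encodes TASK1, a background potassium channel, and the series asks how its loss and sex hormones shape the adrenal transcriptome. The labels give neither the age of the mice, the dose of testosterone, the time since castration nor the structure of the null allele. Nor do they say whether an array is 1 animal or a pool, so p-values measure only the spread between these samples. In RNA from a whole gland, fewer cells of a type and less RNA per cell cannot be told apart.

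Wnt proteins signal through frizzled receptors and LRP co-receptors, and in the canonical branch this stabilises beta-catenin, which acts with TCF/LEF factors on target genes. Frzb and the Sfrp proteins carry a cysteine-rich domain like that of frizzled receptors and can bind Wnts before these reach the receptor, while Wif1 binds them through a WIF domain. In the mouse adrenal cortex, Wnt4 and R-spondin 3 keep beta-catenin signalling active in the outer zona glomerulosa. The innermost cortex holds the X-zone, a layer marked by the steroid reductase Akr1c18, which is lost in males at puberty and can come back after castration.

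The probes of the 3 members that passed a test are shown because every value below is the brightness of such a sequence. They are written 5′ to 3′ as the array design gives them, all in lower case since no base is singled out.
Frzb: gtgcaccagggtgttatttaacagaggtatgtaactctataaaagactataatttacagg
Wif1: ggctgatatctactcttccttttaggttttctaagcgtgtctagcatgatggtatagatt
Sfrp4: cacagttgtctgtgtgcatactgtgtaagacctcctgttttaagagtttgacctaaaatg
In mm9, the build of the array files, the Frzb probe lies at chr2:80252582-80252641 on the minus strand, the Wif1 probe at chr10:120537079-120537138 on the plus strand and the Sfrp4 probe at chr13:19724488-19724547 on the plus strand. Those of Sfrp1 (chr8:24559438-24559497, plus), Sfrp2 (chr3:83577864-83577923, plus) and Sfrp5 (chr19:42272509-42272568, minus) are named by position only. Whether a probe falls in coding sequence or a UTR is not stated in the sources used here.

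Between 57% and 64.7% of spots on an array were well above background. The adrenal cortex could be recognised in every array, with 8 of 8 defining cortical markers well above background. All listed capsule and fibroblast and chromaffin markers, and at least 7 of 8 adipocyte markers, were also above background on every array (Lep was not in male null castrated array 1). Kcnk3, at 2.08 to 4.96 on the log2 scale in null arrays and 5.00 to 6.46 in WT arrays, was lower in each null group than in its WT counterpart with no overlap, although the difference in sham males did not pass the test (-1.12 ± 0.32, limma adjusted p = 0.677). Transcripts of the opposite sex reached at least 10% of the level of that sex in 9 arrays: male null sham 1 and 2, male null castrated 1 and 2, female WT sham 2 and 3, and all 3 female WT testosterone arrays. Under that line, Xist, the transcript of the inactive X chromosome, was at 6.08% in male null sham array 3 and 4.15% in male null castrated array 3. WT male arrays had 0.56 to 1.11%. Liver RNA was seen in female null testosterone array 1, with albumin (Alb) at 8.29, and in male WT sham array 3, at 7.38. Groups are therefore named as labelled.

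Levels are log2 values in which 0 is the 75th percentile of the array, and a difference carries the standard error of a limma fit to the 8 group means, for 3 arrays against 3. A probe counts as called where its limma p, adjusted over 36832 probes by Benjamini-Hochberg, is under 0.05. Each member rests on a different probe, so levels are compared between groups and not between genes.

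**Figure D1:**
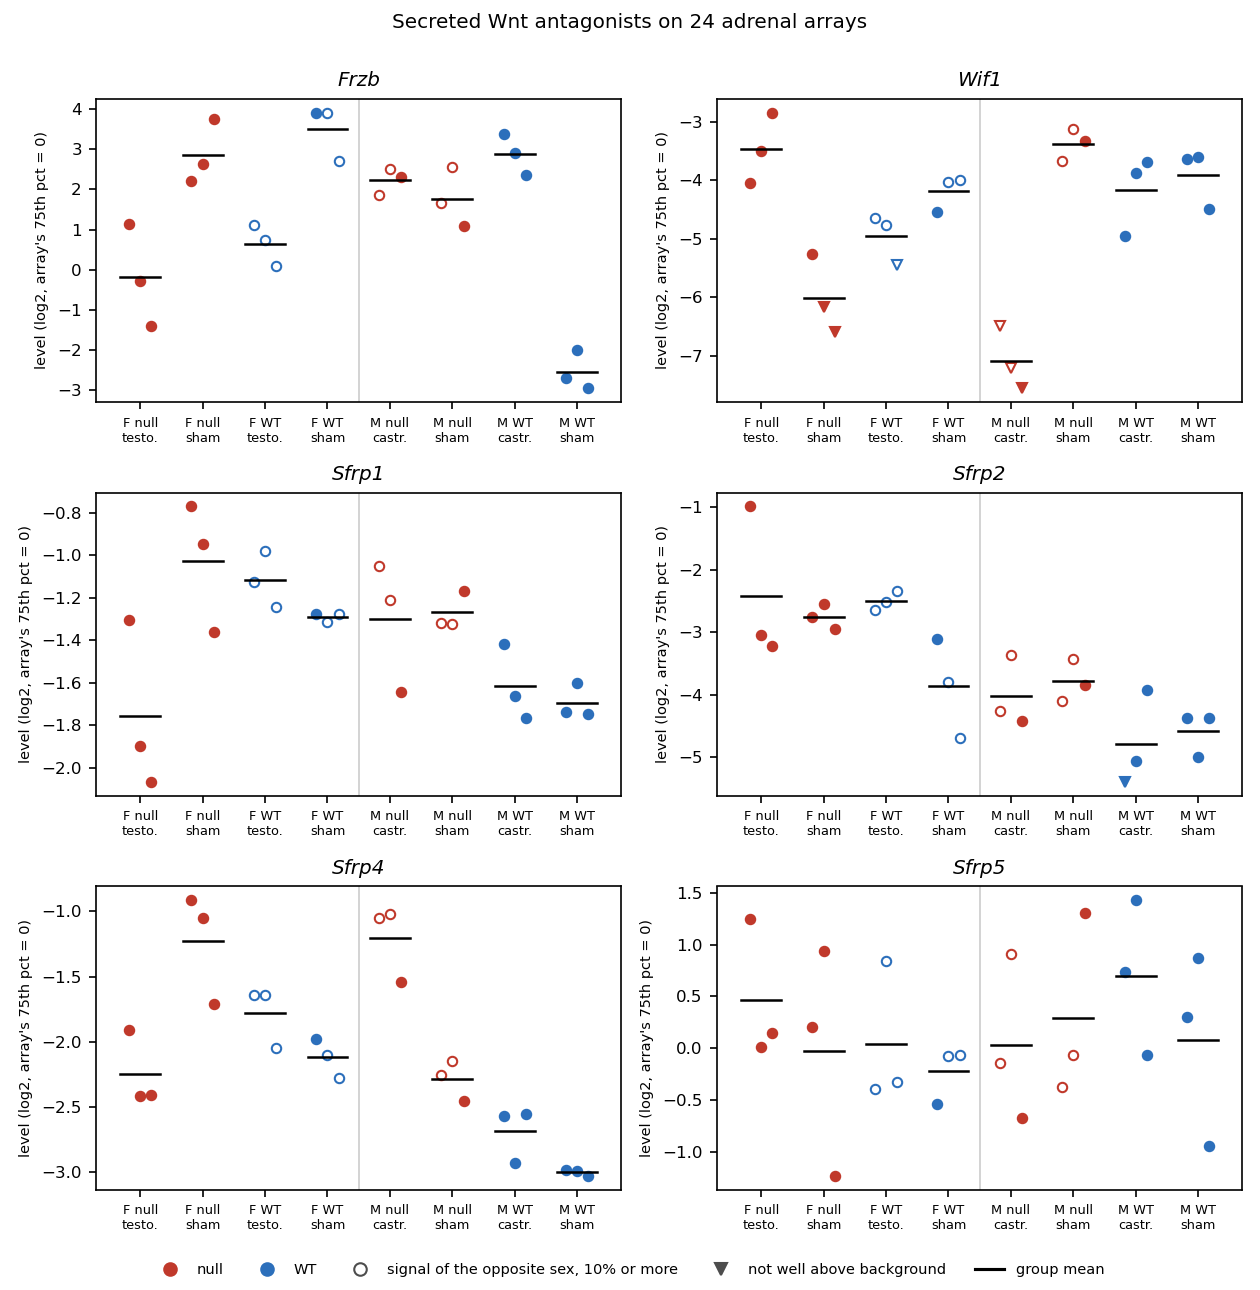
Level of the 6 genes on each of the 24 arrays (log2, 0 is the array's 75th percentile), by group, null in red and WT in blue, with a bar at the mean. Frzb is lowest in the 3 male WT sham arrays, and the group mean of Wif1 is lowest in the male null castrated arrays. For Sfrp5 each group overlaps its neighbour in order of mean. Open symbols are the 9 arrays with signal of the opposite sex, and triangles are spots not well above background.

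Frzb, also known as Sfrp3, had the largest range of the 6 genes, and a single group set it apart. In castrated WT males it read 3.39, 2.91 and 2.36, against -2.69, -2.01 and -2.95 in sham WT males. All 3 castrated arrays lay far above all 3 sham arrays. Frzb rose 43.3-fold with castration in WT males (5.44 ± 0.56, limma adjusted p = 7.39e-05), the only call among the 6 members in a comparison where 0.586% of all tested probes were called. The difference was 6.08, 4.92 and 5.31 on slides 1, 2 and 3. It kept its call under all 14 alternative settings and without each of the 6 arrays in turn.

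In null males Frzb was high whether the testes were present or not. It read 1.85, 2.52 and 2.32 in castrated null males and 1.66, 2.57 and 1.09 in sham null males, and these ranges overlapped (0.46 ± 0.56, limma adjusted p = 0.92). The response to castration differed between the genotypes: the interaction was -4.98 ± 0.79 (limma adjusted p = 0.0194), with Frzb and Wif1 called of 6 members and 0.076% of all tested probes. The interaction of Frzb was no longer called without any of 8 of the 12 male arrays, at adjusted p of up to 0.0789: WT sham 1 or 3, WT castrated 1, 2 or 3, null sham 1 or 2 and null castrated 1. Its size without 1 array was between -5.32 and -4.58.

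Set against WT within sham males, null arrays had 20.03-fold more Frzb RNA (4.32 ± 0.56, limma adjusted p = 0.0019). This was 1 call among the 6 members, beside 0.0815% of all tested probes, and the difference was 4.35, 4.58 and 4.04 on slides 1, 2 and 3. Kcnk3 itself was not called in this comparison (-1.12 ± 0.32, limma adjusted p = 0.677). It read 4.96 in male null sham array 2 and 5.00 in male WT sham array 3. Male null sham arrays 1 and 2 are among those with Xist, the transcript of the inactive X chromosome, at 19.5% and 18.3% of its mean in sham null females. Array 3, with Xist at 6.08%, read 1.09 for Frzb, which is 3.64 above the mean of male WT sham arrays. Xist was at 0.90 to 1.11% in the male WT sham arrays, so array 3 was not free of this signal. It is a lone array, and the part of opposite-sex RNA in the Frzb difference was not tested. In castrated males the null minus WT difference was -0.66 ± 0.56 (limma adjusted p = 1), in sham females -0.65 ± 0.56 (adjusted p = 0.817) and in testosterone-treated females -0.82 ± 0.56 (adjusted p = 0.797). The 95% interval in castrated males was -1.83 to 0.52.

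The sexes differed in the same gene. Sham WT females read 3.91, 3.91 and 2.72 for Frzb, against -2.69, -2.01 and -2.95 in sham WT males. This 66.9-fold difference (6.06 ± 0.56, limma adjusted p = 1.23e-05) was one of 2 calls among the 6 members, where 2.03% of all tested probes were called, and it kept its call under all 14 alternatives and without each array. Among null mice, sham females read 2.21, 2.62 and 3.76 and sham males 1.66, 2.57 and 1.09, which overlapped (1.09 ± 0.56, limma adjusted p = 0.543).

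Testosterone in females went with lower Frzb. Null females read 1.14, -0.27 and -1.41 after testosterone, against 2.21, 2.62 and 3.76 after sham treatment, and every testosterone array lay under every sham array. Frzb fell 8.23-fold (-3.04 ± 0.56, limma adjusted p = 0.0312), with Wif1 the other call among 6 members and 0.168% of all tested probes called. The difference was -1.07, -2.89 and -5.17 on slides 1, 2 and 3, and the call was lost without testosterone array 2 or 3 or sham array 1, 2 or 3, with adjusted p between 0.0552 and 0.165. RNA integrity numbers were 7, 6 and 5 in null testosterone arrays 1, 2 and 3 and 8, 7 and 7 in null sham arrays. Testosterone array 1 also carried liver RNA, and without that array Frzb was called at a difference of -3.70. A fit with RNA integrity as a covariate is among the alternatives. Beyond these fits, the part of RNA integrity and liver RNA in this difference was not tested. WT females read 1.11, 0.73 and 0.09 after testosterone, against 3.91, 3.91 and 2.72 after sham treatment. These groups did not overlap either, but the difference of -2.87 ± 0.56 missed the threshold (limma adjusted p = 0.0515), and none of the 6 members was called there, beside 0.0896% of all tested probes. The difference was -2.81, -3.18 and -2.63 between arrays 1, 2 and 3, on slides 1, 2 and 4, and Frzb was called with slide as a block, 1 of 160 called probes. All 3 WT testosterone arrays and WT sham arrays 2 and 3 carried signal of the opposite sex. Array 3 of both WT groups, on slide 4, had an RNA integrity number of 3. Apart from the fit without slide 4, the part of these limits in the WT response was not tested. The genotypes did not differ detectably in this response (interaction -0.17 ± 0.79, 95% interval -1.83 to 1.49, limma adjusted p = 1).

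Ranked from high to low, the group means of Frzb were those of female WT sham, male WT castrated, female null sham, male null castrated, male null sham, female WT testosterone, female null testosterone and male WT sham. The ranges of neighbours overlapped at each step but the last.

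**Figure D2:**
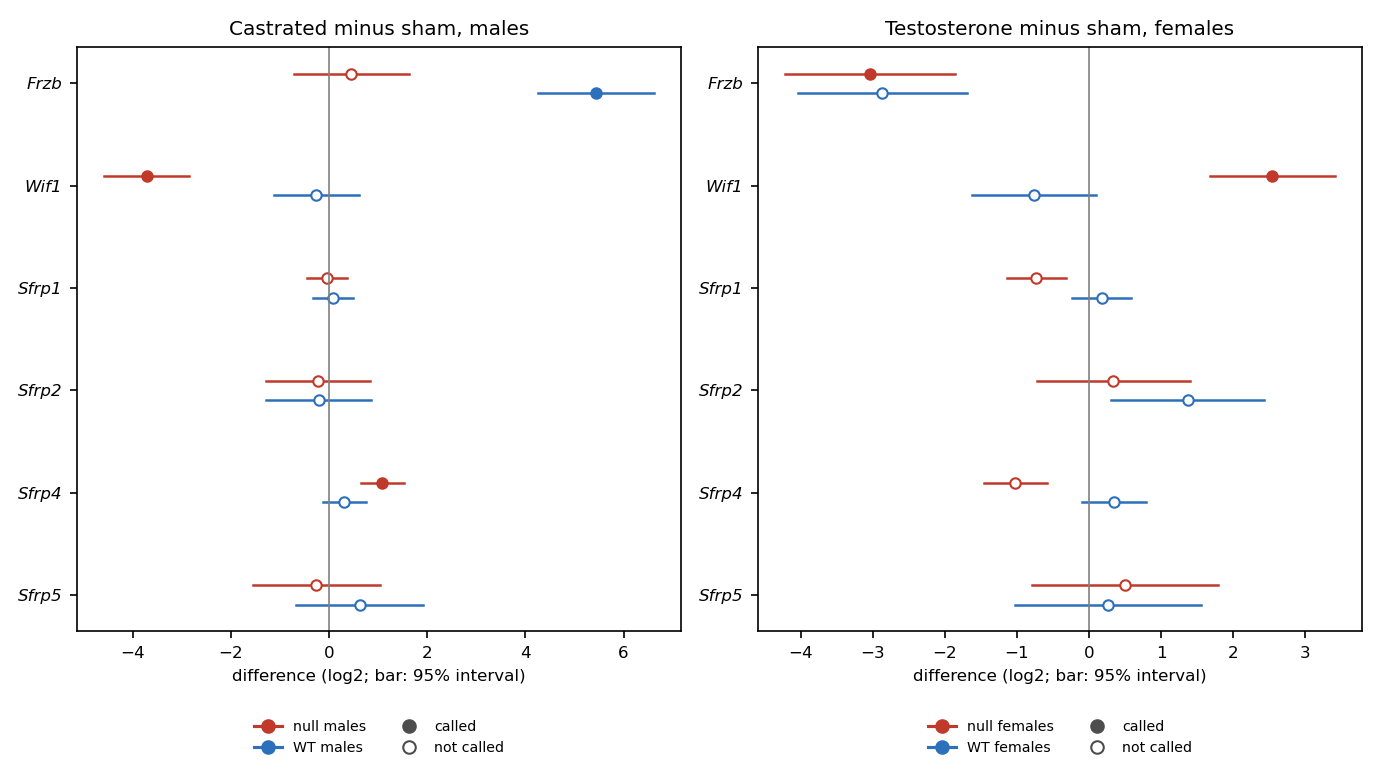
Differences (log2, with 95% interval) of castrated minus sham males, left, and testosterone minus sham females, right, in null (red) and WT (blue) mice; filled points were called. The castration difference of Frzb is 0.46 in null males and 5.44 in WT males, and the testosterone difference is -3.04 in null females and -2.87 in WT females.

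The X-zone markers were read beside Frzb, since they too follow sex and androgen in this gland. Their summed level, in multiples of the 75th percentile of the array and over 2 genes, Akr1c18 and Pik3c2g, was 228 to 330 in castrated WT males and 0.0695 to 0.109 in sham WT males. In null males it was 161 to 248 after castration. After sham treatment it was 91.6 and 129 in null male arrays 1 and 2, which carried signal of the opposite sex. In array 3, which was not among the arrays with such signal, it was 0.0832. Null females had 0.0901 to 0.119 after testosterone and 7.26 to 104 after sham treatment. WT females had 57.1 to 108 after testosterone and 134 to 372 after sham treatment. Pik3c2g was not well above background in any male WT sham or female null testosterone array, nor in male null sham array 3. The X-zone markers therefore moved with Frzb in most groups, and their part in its differences was not tested. The 2 measures parted in several places. Male null sham array 3 had Frzb at 1.09 with Akr1c18 at -3.65, and female null testosterone array 1 had Frzb at 1.14 with Akr1c18 at -3.78. Female null sham array 3 had the highest Frzb of its group, 3.76, with the lowest Akr1c18, 2.85. All 3 arrays of WT females given testosterone had Akr1c18 at 5.83 to 6.75 with Frzb at 0.09 to 1.11.

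**Figure D3:**
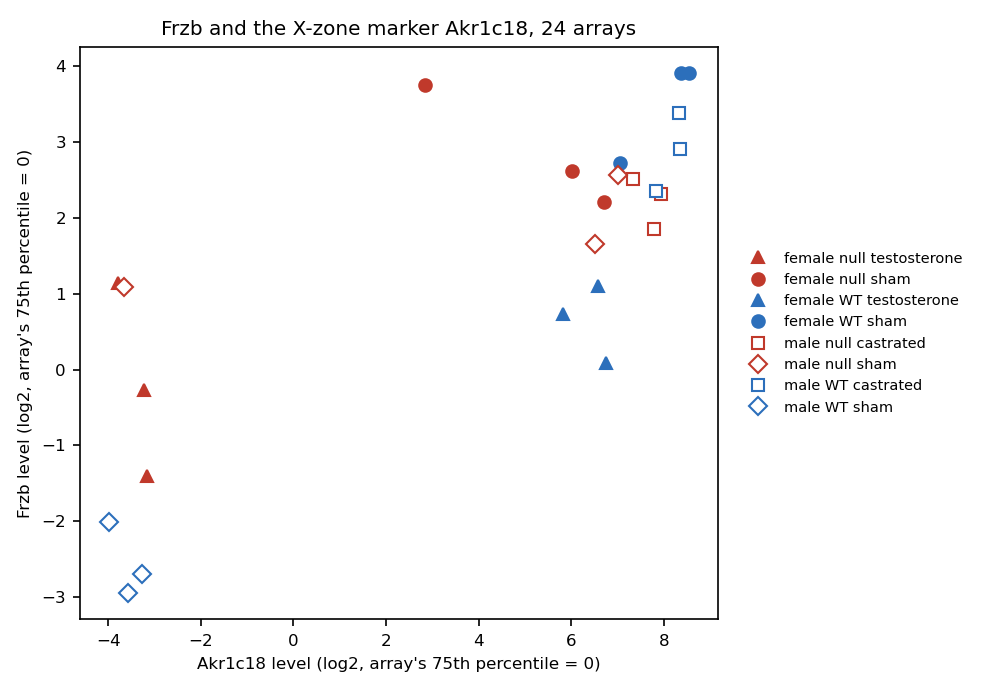
Frzb against the X-zone marker Akr1c18 on each of the 24 arrays (both log2, 0 is the array's 75th percentile), filled for females and open for males. The 3 male WT sham arrays are low for both genes, and male null sham array 3 lies among arrays of low Akr1c18 (-3.65) with Frzb at 1.09.

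Wif1, Wnt inhibitory factor 1, was the dimmest member, well above background on 18 of the 24 arrays. It read -6.49, -7.21 and -7.55 in castrated null males, where no array was well above background. In sham null males it read -3.68, -3.12 and -3.33, above every castrated array. On the scanner's processed signal, Wif1 was at least 4.40-fold lower in castrated than in sham null males (limma adjusted p = 9.91e-05). The bound was set by the lowest signal that counted as well above background. Sfrp4 was the other of 2 calls among the 6 members, beside 0.945% of all tested probes.

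WT males did not show this: Wif1 read -4.95, -3.87 and -3.68 in castrated WT males and -3.64, -3.59 and -4.50 in sham WT males (-0.26 ± 0.41, limma adjusted p = 1). The castration interaction was called (limma adjusted p = 0.0265), but the call was lost without any of 10 of the 12 male arrays, at adjusted p of up to 0.105, and held only without WT castrated 1 or null castrated 1. Between the castrated groups, Wif1 was at least 2.54-fold lower on the processed signal in null males than in WT males (limma adjusted p = 0.00104). There 2 of the 6 members, Wif1 and Sfrp4, were called beside 0.66% of all tested probes.

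In females Wif1 separated the treatments in null mice. It read -4.06, -3.50 and -2.85 after testosterone, against -5.27, -6.17 and -6.59 after sham treatment, where only array 1 was well above background. The groups did not overlap and Wif1 rose (2.54 ± 0.41, limma adjusted p = 0.0116), but with 2 of the 3 sham spots near background the size of the rise is uncertain. That call was lost without sham array 2 or 3 or testosterone array 3, at adjusted p of 0.0718, 0.0594 and 0.0932. In WT females it read -4.64, -4.77 and -5.45 after testosterone and -4.53, -4.04 and -3.99 after sham treatment, without overlap but not called (-0.77 ± 0.41, limma adjusted p = 0.941).

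The difference between these responses, 3.31 ± 0.58, was called (limma adjusted p = 0.0309), the only call among the 6 members beside 0.0869% of all tested probes. With slide as a block it was not called (adjusted p = 0.0565). It was also lost without any of 9 of the 12 female arrays, with values of 3.00 to 3.68 and adjusted p of up to 0.105, and held without WT testosterone 2, null sham 1 or null testosterone 1. Sham null females had less Wif1 than sham null males (-2.64 ± 0.41, limma adjusted p = 0.00381), again with 1 of 3 female arrays well above background and so an uncertain size, and 2 of the 6 members were called beside 0.711% of all tested probes. Null against WT within sham females gave -1.82 ± 0.41, which missed the threshold (limma adjusted p = 0.0555), and no member was called there beside 0.483% of all tested probes. In females given testosterone the difference was 1.49 ± 0.41 (limma adjusted p = 0.22), again with no member called beside 0.0516% of all tested probes. In sham males it was 0.54 ± 0.41 (adjusted p = 0.999).

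The group means of Wif1 ran, from high to low, through male null sham, female null testosterone, male WT sham, male WT castrated, female WT sham, female WT testosterone, female null sham and male null castrated. The ranges of neighbours overlapped except between female WT sham and female WT testosterone.

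The Wif1 differences changed with the treatment of background. All Wif1 spots were dim, and the part of this in the change was not tested. Normexp correction took the place of the scanner software's own subtraction and added an offset of 50, which narrows differences between dim spots. The castrated minus sham difference in null males was then -0.83 (limma adjusted p = 0.143) and the null minus WT difference in castrated males -0.51 (adjusted p = 0.879). The testosterone difference in null females was then 0.77 (adjusted p = 0.521), the sex difference in null mice -0.58 (adjusted p = 0.34), and the interactions -0.70 and 1.008 (adjusted p = 0.974 for castration and 1 for testosterone). The normexp differences of castrated null males are smaller than the bounds of 4.40-fold and 2.54-fold above, which hold for the processed signal only. The part of the offset in these values was not tested. In the authors' value table the interactions were -1.29 and 1.34 (adjusted p = 0.121 and 0.103). The zona glomerulosa list, 5 of 5 genes above background in every array, had summed levels of 61.1 to 74.3 in castrated null males, 71.7 to 74.5 in sham null males and 75.8 to 93.4 in castrated WT males. Between castrated null and castrated WT males 2 of these 5 genes fell and 1 rose. The angiotensin receptor Agtr1b read -1.85 to -1.11 in castrated null males and 1.18 to 1.29 in castrated WT males. The calcium sensor Vsnl1 read -3.43 to -3.14 in castrated null males and -0.14 to 0.23 in castrated WT males. Aldosterone synthase, Cyp11b2, went the other way, with 1.82 to 3.29 in castrated null males and -1.05 to 0.41 in castrated WT males. Their part in the Wif1 difference was not tested.

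**Figure D4:**
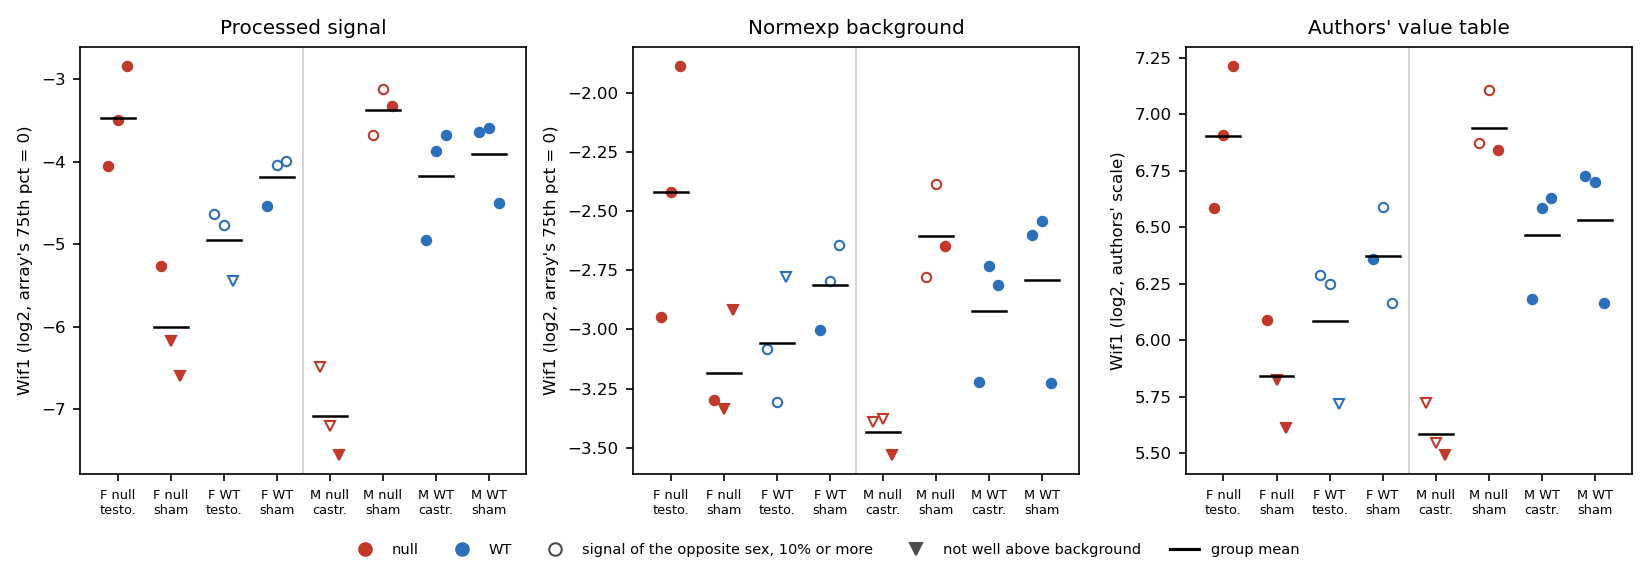
Wif1 on each of the 24 arrays by group, from the scanner's processed signal, from normexp background correction (both log2, 0 is the array's 75th percentile) and from the authors' value table (log2, their own scale), with bars at the means. The mean of castrated null males is lowest on all 3 scales. The span from lowest to highest group is narrower with normexp, which adds an offset of 50, and in the authors' table.

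Sfrp4, a secreted frizzled-related protein known from bone and from phosphate handling, was higher in null than in WT arrays in 3 of the 4 settings. Castrated null males read -1.05, -1.02 and -1.54, against -2.57, -2.93 and -2.56 in castrated WT males. The groups were well apart, and Sfrp4 rose 2.80-fold (1.49 ± 0.21, limma adjusted p = 0.00104), by 1.52, 1.92 and 1.02 on slides 1, 2 and 3. In sham males null arrays read -2.25, -2.15 and -2.45 and WT arrays -2.986, -2.995 and -3.031, without overlap but not called (0.72 ± 0.21, limma adjusted p = 0.738).

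Sham null females read -0.91, -1.05 and -1.71 for Sfrp4, against -1.98, -2.10 and -2.28 in sham WT females. These did not overlap either (0.89 ± 0.21, limma adjusted p = 0.0678). With testosterone the order turned: null females read -1.91, -2.42 and -2.41 and WT females -1.64, -1.64 and -2.05, with some overlap (-0.47 ± 0.21, limma adjusted p = 0.534). Averaged over the 4 pairs, null was above WT by 0.66 ± 0.10 (12 arrays against 12, limma adjusted p = 0.00203), the only call among the 6 members beside 2.45% of all tested probes. That call held under all 13 alternatives that gave a value and without each of the 24 arrays.

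Castration went with more Sfrp4 in null males, at -1.05, -1.02 and -1.54 in castrated arrays against -2.25, -2.15 and -2.45 in sham arrays (1.08 ± 0.21, limma adjusted p = 0.0138). In WT males the same difference was 0.32 ± 0.21 (adjusted p = 0.999), and the interaction of 0.77 ± 0.30 was not called (adjusted p = 0.939). The call in null males was lost without null sham array 1 or 3 or null castrated array 1 or 2, at adjusted p between 0.0616 and 0.0798. Null females had less Sfrp4 after testosterone than after sham treatment (-1.02 ± 0.21, limma adjusted p = 0.0579, not called), and WT females gave 0.34 ± 0.21 (adjusted p = 1). The interaction was -1.37 ± 0.30 (adjusted p = 0.149).

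By sex, Sfrp4 was higher in females of both genotypes. The difference was 1.06 ± 0.21 between sham null females and sham null males (limma adjusted p = 0.0207) and 0.88 ± 0.21 between sham WT females and sham WT males (adjusted p = 0.0324). Neither group pair overlapped. The call in null mice was lost without null sham female 1 or 2 or any null sham male array (adjusted p 0.0513 to 0.111), and that in WT mice without WT sham female 1 or 2 or any WT sham male array (adjusted p 0.0774 to 0.137). Group means ran, from high to low, through male null castrated, female null sham, female WT testosterone, female WT sham, female null testosterone, male null sham, male WT castrated and male WT sham. Ranges did not overlap at the last 2 of these steps.

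**Figure D5:**
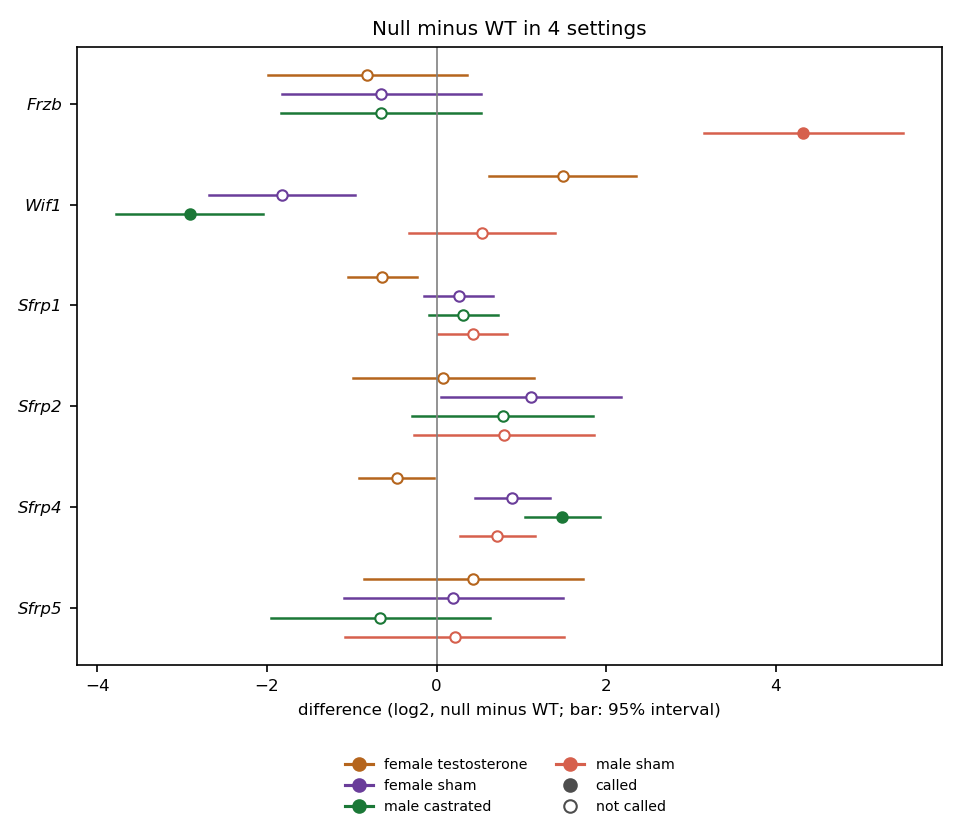
Null minus WT difference (log2, with 95% interval) for the 6 genes in each of the 4 settings; filled points were called. The called differences are those of Frzb in sham males (4.32), and of Wif1 (-2.91, a fitted value) and Sfrp4 (1.49) in castrated males.

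Without the 9 arrays that carried signal of the opposite sex, Frzb kept its call for sex in WT mice, with 1 female array left (6.46, limma adjusted p = 0.00805), and for castration in WT males, where no array was dropped (5.44, adjusted p = 0.00461). The castration interaction of Frzb was then -4.21 (adjusted p = 1). Sfrp4 differed by 1.15 between castrated null and castrated WT males (adjusted p = 0.497), by 0.91 between castrated and sham null males (adjusted p = 0.939), by 1.23 between null females and males (adjusted p = 0.396) and by 1.03 between WT females and males (adjusted p = 0.159). For Wif1 the adjusted p was 0.151 between castrated null and castrated WT males, 0.24 between castrated and sham null males, and 0.334 between null females and null males. The directions were those with all arrays, but groups of 1 array are assumed to vary like the others. The null male arrays that stayed in, sham 3 and castrated 3, had Xist at 6.08% and 4.15%, against 0.56 to 1.11% in WT male arrays. The part of opposite-sex RNA in the differences was not tested.

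Capsule and fibroblast markers were read beside the Sfrp genes, since these are often expressed in mesenchymal cells. All 10 listed genes were above background in every array. Their summed level was 115 to 159 in castrated null males and 92.8 to 115 in castrated WT males, 170 to 184 in sham null females and 122 to 146 in sham WT females. It was 114 to 144 in sham null males and 94.2 to 128 in sham WT males. Given testosterone, null females had 144 to 203 and WT females 171 to 189, above most castrated null males although their Sfrp4 was lower. Between castrated and sham null males 1 of the 10 genes rose and 1 fell, with a median of -0.12. None of the 10 genes was called between null and WT in any of the 4 pairs or in their average. The summed level was higher in null than in WT arrays without overlap in sham females, while the ranges overlapped in the other pairs. The list did not follow Sfrp4 over all groups, and its part in the differences was not tested.

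Sfrp2, which like Sfrp1 and Sfrp5 belongs to the other branch of the family, passed no test in any of the 13 comparisons. It read -0.99, -3.05 and -3.22 in null females given testosterone, -2.76, -2.55 and -2.95 in sham null females, -2.64, -2.52 and -2.34 in WT females given testosterone, and -3.10, -3.80 and -4.70 in sham WT females. In males it read -4.26, -3.36 and -4.43 (null castrated), -4.10, -3.42 and -3.85 (null sham), -5.40, -5.06 and -3.93 (WT castrated) and -4.37, -5.01 and -4.38 (WT sham). The 3 highest group means were those of the first 3 female groups named, and the next group in order, male null sham, did not overlap with sham null females. Testosterone minus sham in WT females was 1.37 ± 0.51 (limma adjusted p = 0.566), and null minus WT averaged over the 4 pairs was 0.69 ± 0.25 (adjusted p = 0.184). The value of -0.99 belongs to an array with liver RNA, and that of -5.40 to a spot not well above background.

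Sfrp1 varied least. Its group means lay between -1.76 ± 0.40 in null females given testosterone and -1.03 ± 0.30 in sham null females (SD, n = 3 each), and every group overlapped its neighbour in order. Over single arrays Sfrp1 ran from -2.07 to -0.77. The testosterone minus sham difference in null females was -0.73 ± 0.19 (limma adjusted p = 0.221) and null minus WT in females given testosterone -0.64 ± 0.19 (adjusted p = 0.274). Without the array with liver RNA, null female testosterone array 1, 4 members were called for testosterone in null females, Frzb, Wif1, Sfrp1 and Sfrp4, among 61 called probes in all.

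Sfrp5 differed more between arrays of a group than between groups. Null females given testosterone read 1.25, 0.02 and 0.15 and sham null females 0.21, 0.94 and -1.23. The lowest and highest group means were -0.22 ± 0.27 in sham WT females and 0.70 ± 0.75 in castrated WT males (SD, n = 3 each). Every group overlapped its neighbour in order, no comparison passed, and the 95% intervals of all 10 differences between groups held 0. The interval of the largest, castrated null minus castrated WT males, was -1.96 to 0.62.

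The genes most like each member over the 24 arrays, by Pearson's r among 14986 named genes, differed from member to member. These are descriptions over arrays that share slides and groups. Frzb was most like Adh1, alcohol dehydrogenase 1 (r = 0.93, 23 arrays), Aldh3b1, an aldehyde dehydrogenase (0.91), and Ajap1 (0.91). Wif1 was most like Skap1 (0.90), the kinase gene Hunk (0.89) and Clic6 (0.89). Sfrp4 was most like Adamts15, a matrix protease (0.93), the basement membrane collagen Col4a6 (0.93) and the cadherin Celsr1 (0.91).

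Sfrp1 was most like the smooth muscle actin Acta2 (0.79), Gli2, a transcription factor of hedgehog signalling (0.78), and the matrix protease Mmp2 (0.75). For Sfrp2 they were the fibrillar collagen Col3a1 (0.88), Lgi2 (0.86) and Ebi3 (0.86). Sfrp5 was most like the adrenergic receptor Adra2a (0.92), the integrin Itgb4 (0.92) and the intermediate filament gene of peripheral neurons Prph (0.89). Its likeness was as high within groups, at 0.92, 0.93 and 0.91 after group means were removed, while that of Frzb to Adh1 was 0.73 and that of Wif1 to Skap1 0.45.

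Other genes of the pathway were read from 7 lists, with 69 of 80 genes tested. Among the other secreted inhibitors Dkk3, a dickkopf family member, moved most often. It was higher in castrated null than castrated WT males, at means of 4.65 and 2.63 (2.01 ± 0.25, limma adjusted p = 0.000354), and in sham null than sham WT females, at 4.09 and 2.28 (1.81 ± 0.25, adjusted p = 0.00137). Dkk3 rose with castration in null males (2.02 ± 0.25, adjusted p = 0.000346), fell with testosterone in null females (-1.52 ± 0.25, adjusted p = 0.014), and was higher in sham null females than in sham null males (1.47 ± 0.25, adjusted p = 0.00815). In sham males its null minus WT difference was 0.34 ± 0.25 (adjusted p = 0.999).

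Among 12 tested Wnt ligands, Wnt9b fell with castration in WT males (-2.21 ± 0.46, limma adjusted p = 0.03) and Wnt10a was lower in null arrays over the 4 pairs (-0.56 ± 0.13, adjusted p = 0.0279). Of 8 R-spondin and receptor genes, Rspo4 was called higher over the 4 pairs (adjusted p = 0.0498), with a group that has no array above background. Among 15 receptors and co-receptors, Fzd10 (0.86 ± 0.14, adjusted p = 0.00174), the non-canonical receptor Ror2 (0.67 ± 0.14, adjusted p = 0.016) and Fzd9 (0.53 ± 0.13, adjusted p = 0.039) were higher in null arrays over the 4 pairs. Fzd10 (1.34 ± 0.27, adjusted p = 0.0305) and Ror2 (1.45 ± 0.28, adjusted p = 0.0235) also rose in sham null over sham WT females.

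Of 15 genes of beta-catenin signal transduction, Tcf7l1 alone was called, lower in sham WT females than in sham WT males (-0.79 ± 0.20, limma adjusted p = 0.0413). None of 8 Wnt target genes and neither gene of Wnt secretion was called in any of the 13 comparisons. Axin2, a widely used readout of canonical signalling, differed by 0.23 ± 0.18 between null and WT over the 4 pairs (adjusted p = 0.625). In all, 5 of 69 rose and 1 fell in that average, with a median of 0.07 against -0.03 over all tested probes, and 0 rose and 0 fell between null and WT sham males.

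The promoters of 4 of the 6 members were found in RefSeq (GRCm38.p6, from 250 bases before to 50 after the start of the gene); Sfrp1 and Sfrp4 were not in the table. They were searched on both strands for the full androgen response element, its single arm AGAACA, which the full element contains, the SF-1 site CAAGGTCA and the TCF/LEF core CTTTGA. These letters occur in 0.00913%, 19%, 1.56% and 16% of 32851 such windows. The windows of Wif1, Sfrp2 and Sfrp5 held none of them. The Frzb window, chr2:80447347-80447646 on the minus strand, is shown because Frzb had the largest hormone differences, and it held 1 TCF/LEF core on the reverse strand, in capitals, with its first base at -95.
Frzb promoter: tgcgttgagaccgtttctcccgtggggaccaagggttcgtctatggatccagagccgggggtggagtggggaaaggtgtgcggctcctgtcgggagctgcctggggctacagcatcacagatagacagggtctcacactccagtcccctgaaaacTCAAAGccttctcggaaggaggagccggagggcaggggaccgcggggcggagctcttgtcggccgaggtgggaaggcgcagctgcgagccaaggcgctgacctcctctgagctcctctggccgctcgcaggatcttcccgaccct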

How the data were processed

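The deposited scanner files hold spot intensities from Agilent Feature Extraction, and per the file headers the processed signal already had background subtracted. Per the labels, 0.2 µg of total RNA was labelled with Cy3 for each array. The authors' deposited value table holds log2 values. Its sorted values differ by at most 0.0605 between arrays (column medians 6.33 to 6.34), so it was taken as quantile normalized from the values themselves. The release of the array annotation is not given in the sources used here.

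The level used is log2 of the processed signal minus the 75th percentile of the array over 59305 spots that are no controls. Outlier spots were dropped and spots of a probe averaged. Probes well above background on at least 3 of 24 arrays were tested (36832 of 55681). Where no array of a group was well above background, a fold is a lower bound for the processed signal, set by the lowest signal that counted as well above. The 75th percentile was 426 to 1099 and limits the precision for dim probes, as does the number of arrays.

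Differences were fitted with limma 3.58.1 in R 4.3.3 (lmFit and eBayes, 16 residual and 2.28 prior degrees of freedom), with Benjamini-Hochberg adjustment over all tested probes of each of 13 comparisons. The procedure was tested on simulated data. Files were read with data.table (1.17.8), and promoters and figures were handled in Python 3.11.15 with pandas 2.3.3, numpy 2.4.6 and matplotlib 3.10.9.

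Arrays 1, 2 and 3 of the groups lay on slides 1, 2 and 3, apart from female WT sham 3 and female WT testosterone 3 on slide 4, with an RNA integrity number of 3 each. Those 2 arrays use another release of gene names for 6713 spots, and names were taken from the other release; the member probes are the same in both. Deviations of arrays with the same number correlated by 0.22 on average and -0.37 at the lowest, and those with different numbers by -0.105 on average. Numbers were not treated as pairs in the main fit, and fits with slide or replicate as a block are among the alternatives. The members, the gene lists and the tests were chosen with earlier results of these data known. Named genes are the members, Kcnk3, called genes of the Wnt lists (at most 4 per list and comparison), and the 3 genes most correlated with each member among named genes other than predicted, clone or RIKEN symbols. Marker genes of other cell types that are named were picked after their values were seen.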

Additional observations from a re-analysis of the deposited data

Results flagged for a closer look

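The interaction tests singled out 3 results in which null and WT mice responded differently to the same treatment. For castration in males, the response of Frzb in null males minus that in WT males was -4.98 (limma adjusted p = 0.0194): 0.46 in null and 5.44 in WT males. For Wif1 the same interaction was -3.45 as fitted (adjusted p = 0.0265), with responses of -3.71 in null and -0.26 in WT males, and the castrated null arrays were not well above background. For testosterone in females the interaction of Wif1 was 3.31 (adjusted p = 0.0309), from 2.54 in null and -0.77 in WT females. The calls were not stable. Without 1 array, the Frzb interaction was lost in 8 of 12 cases, the Wif1 interaction for castration in 10 of 12 and that for testosterone in 9 of 12. With normexp correction and its offset of 50 the Wif1 interactions were -0.70 (adjusted p = 0.974) and 1.008 (adjusted p = 1), and each was lost in 5 of the settings tried. In each of these 3 tests, some of the arrays carried signal of the opposite sex, and its part in the result was not tested.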

How the results depend on the processing

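No call of a member reversed under any of the 14 alternatives or on leaving out an array. Frzb for castration in WT males, Frzb for sex in WT mice and Sfrp4 averaged over the 4 pairs kept their calls in every setting that gave a value, at differences of 4.83 to 5.46, 5.51 to 6.46 and 0.46 to 0.69 over the settings that left out no single array. The count of called members changed as follows. Calls over all probes, from the fewest to the most over the 13 comparisons, were 19 to 901 in the main fit. They were 13 to 571 with normexp correction, 21 to 978 with quantile normalization and 20 to 1045 with the authors' value table. Without a filter they were 8 to 548, with probes above background on all arrays 13 to 915, and with 1 probe per gene name 8 to 751. With normexp correction 1 member was called, not 2, for null against WT in castrated males, castration in null males, sex in WT and in null mice, and the castration interaction; 1 and not 0 for testosterone in WT females; and 0 and not 1 for the testosterone interaction. Quantile normalization and the authors' value table gave 1 for castration in null males, sex in both genotypes and the castration interaction, and 0 for the testosterone interaction; the authors' table also gave 1 for testosterone in WT females. Without a filter 1 was called for testosterone in null females and for sex in WT mice. Only probes above background on all arrays left Wif1 without a value, and gave 1 for null against WT in sham females and castrated males, castration in null males, testosterone in WT females, sex in null mice and the castration interaction, and 0 for the testosterone interaction. One probe per gene name, the slide block and the replicate block each gave 1 for null against WT in sham females and for testosterone in WT females, the replicate block also 2 for the testosterone interaction (Wif1 and Sfrp4). With the slide block, a different fit, Wif1 lost that interaction (adjusted p = 0.0565). The RNA integrity covariate and the trended robust fit gave 1 for testosterone in WT females. Calls over all probes were 39 to 1609 with the slide block and 34 to 1645 with the replicate block. They were 30 to 1639 with the covariate and 23 to 1008 with the trended robust fit. Array weights gave 2 for null against WT in sham females and in sham males, 1 in testosterone-treated females and 3 averaged over the 4 pairs, 1 for testosterone in WT females, 4 in null females and 3 for its interaction; this setting called 193 to 3509 probes in all over the 13 comparisons, against 19 to 901 without weights. Without slide 4 the testosterone interaction had 0, and 6 to 1011 probes were called in all over the comparisons. Without the 2 arrays with liver RNA 1 was called for null against WT in sham females, testosterone in WT females, sex in WT mice and the castration interaction. All probes gave 8 to 1009 calls there. Without the 9 arrays with opposite-sex signal 0 were called for null against WT in sham and castrated males, castration in null males, testosterone in null females, sex in null mice and the castration interaction, and 1 for sex in WT mice. That setting leaves 1 array in 3 groups, assumed to vary like the others, and none in female WT testosterone, so 4 comparisons had no value. Its fewest and most calls over all probes were also below those of the main fit. The cause of these changes was not tested.

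Leaving out 1 array at a time, the count of called members was 0 to 1 for null against WT in sham females, testosterone in WT females and both interactions, 0 to 4 for testosterone in null females, and 1 to 2 for castration in null males and for sex in WT and in null mice. Over all probes these fits called 71 to 147, 5 to 56, 5 to 27 (castration interaction), 20 to 51 (testosterone interaction), 19 to 61, 133 to 220, 351 to 775 and 63 to 184, in the order named. The count of members stayed at 1 for null against WT in sham males, castration in WT males and the 4 pairs, at 2 for null against WT in castrated males and at 0 in females given testosterone.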
